A study of Mus musculus with 6 samples.

Results

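Chemokines and their receptors were examined in RNA-seq data from the liver of WT mice and of mice that lack flavin-containing monooxygenase 5, *Fmo5*-/-. Every gene whose symbol begins as that of a CC, CXC, XC or CX3C chemokine (*Ccl*, *Cxcl*, *Xcl1*, *Cx3cl1*), of one of their receptors (*Ccr*, *Cxcr*, *Cx3cr1*) or of an atypical receptor (*Ackr*), followed where the name has one by its number, was taken, which gave 62 of the 54446 genes listed. Of these, 40 are ligands and 22 are receptors. All animals were males of 32 weeks of age on a C57BL/6J background (C57BL/6 in the labels), kept on a standard chow diet, with 3 WT mice and 3 *Fmo5*-/- mice and 1 library of single reads from each liver. The mutation is global, so every cell type of the liver lacked FMO5, and whether the mice were littermates is not stated in the sources used here.

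Chemokines are small secreted proteins that direct the movement of leukocytes. Their receptors are G-protein-coupled receptors on the surface of the migrating cells, whereas the atypical receptors bind chemokines without coupling to G proteins and remove, store or transport them. In the liver, Kupffer cells, the resident macrophages, together with endothelial cells, stellate cells and hepatocytes release chemokines that draw monocytes, neutrophils, T cells and NK cells from the sinusoids. The comparison asked how the transcripts of this family differ between the livers of the 2 genotypes.

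The libraries held 67753857 to 75632821 reads, of which 66.2% to 69.2%, or 44886286 to 52338675 counts, lay on genes. A gene with no count in a library may still have had up to 3 counts there, or 0.0573 to 0.0668 CPM (counts per 1000000 counts on genes), a limit that covers counting error only. *Fmo5* had normalized counts of 39808, 37405 and 30240 in WT mice and of 1071, 1102 and 1194 in *Fmo5*-/- mice, a log2 fold change of -5.00 ± 0.14 (SE, n = 3 per genotype, edgeR adjusted p = 2.79e-07), as the labels state. A normalized count is here a raw count scaled to the mean library size with edgeR's TMM factors. The liver is identified by its hepatocyte markers, of which 6 summed to 110066 to 141862 CPM in each library. Of 16734 genes tested over the whole table, 229 were called by edgeR at an adjusted p under 0.05, 113 higher and 116 lower in *Fmo5*-/- mice.

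No chemokine or receptor gene passed this threshold, but the tested members whose counts did not overlap between the genotypes were all higher in *Fmo5*-/- mice. Among them were the T cell attractants *Cxcl9* and *Cxcl10*, the macrophage and lymphocyte chemokines *Ccl4* and *Ccl5*, the macrophage chemokine *Ccl6*, the transmembrane chemokine *Cxcl16*, the B cell attractant *Cxcl13*, and the receptor *Ccr2*. By edgeR, 0 of 34 tested members were called higher, beside 0.675% of all tested genes, and 0 were called lower, beside 0.693%. At an unadjusted p under 0.05, 10 members were higher, beside 11.6% of all tested genes, and none was lower, beside 10.2%. With the Wald test of DESeq2, 8 of the 33 members given an adjusted p were called higher, beside 4.75% of all genes given one, and 0 were called lower, beside 4.21%. Among the 8 were *Ccl3*, *Ccl4*, *Ccl5*, *Ccl6*, *Cxcl9*, *Cxcl10* and *Cxcl16*. With no filter on low counts, edgeR called 8 of the 59 members with a count higher, beside 3.2% of all genes, and 0 lower, beside 2.62%. Of those 8, *Ccl3*, *Ccl4*, *Ccl6*, *Cxcl10* and *Cxcl16* were also called by DESeq2, and *Ccr2* and *Cxcl5* were not. With the reads of 1 strand alone, edgeR called 1 member higher, beside 1.16% of all genes tested there. Whether a chemokine gene was called thus differed between these settings. DESeq2 was run without the filter used for edgeR, so its count does not show the part of the tool alone.

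Counts in the 3 mice of a genotype did not overlap with those of the other genotype in 9 tested members, all higher in *Fmo5*-/- mice, beside 13.9% of all tested genes higher and 13.5% lower without overlap (27.4% in either direction). Most tested members are of low abundance, with a median normalized count of 73.2 against 411.6 for all tested genes. Among genes with a mean normalized count under 500, 15.1% were higher at an unadjusted p under 0.05 and 17.8% were higher without overlap, beside 9 and 8 of the 31 such members. The log2 fold change was above 0 in 28 of the 34 tested members, beside 50.8% of all tested genes, and its median was 0.43, beside 0.01 for all. Of the 34, 30 passed the filter on low counts in each genotype. *Ccl4* was above the filter's cutoff only in *Fmo5*-/- libraries, and *Cxcr2* in all 3 of these and in 1 WT library. For both genes passing through *Fmo5*-/- libraries favours a difference in that direction. *Ccr1* and *Cxcl2* passed through libraries of both genotypes in part. Among the 30, 25 had a log2 fold change above 0, the median was 0.40, and 8 were higher without overlap. With 3 mice against 3, an exact permutation test of a single gene cannot go below a two-sided p of 0.1.

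**Figure D1:**
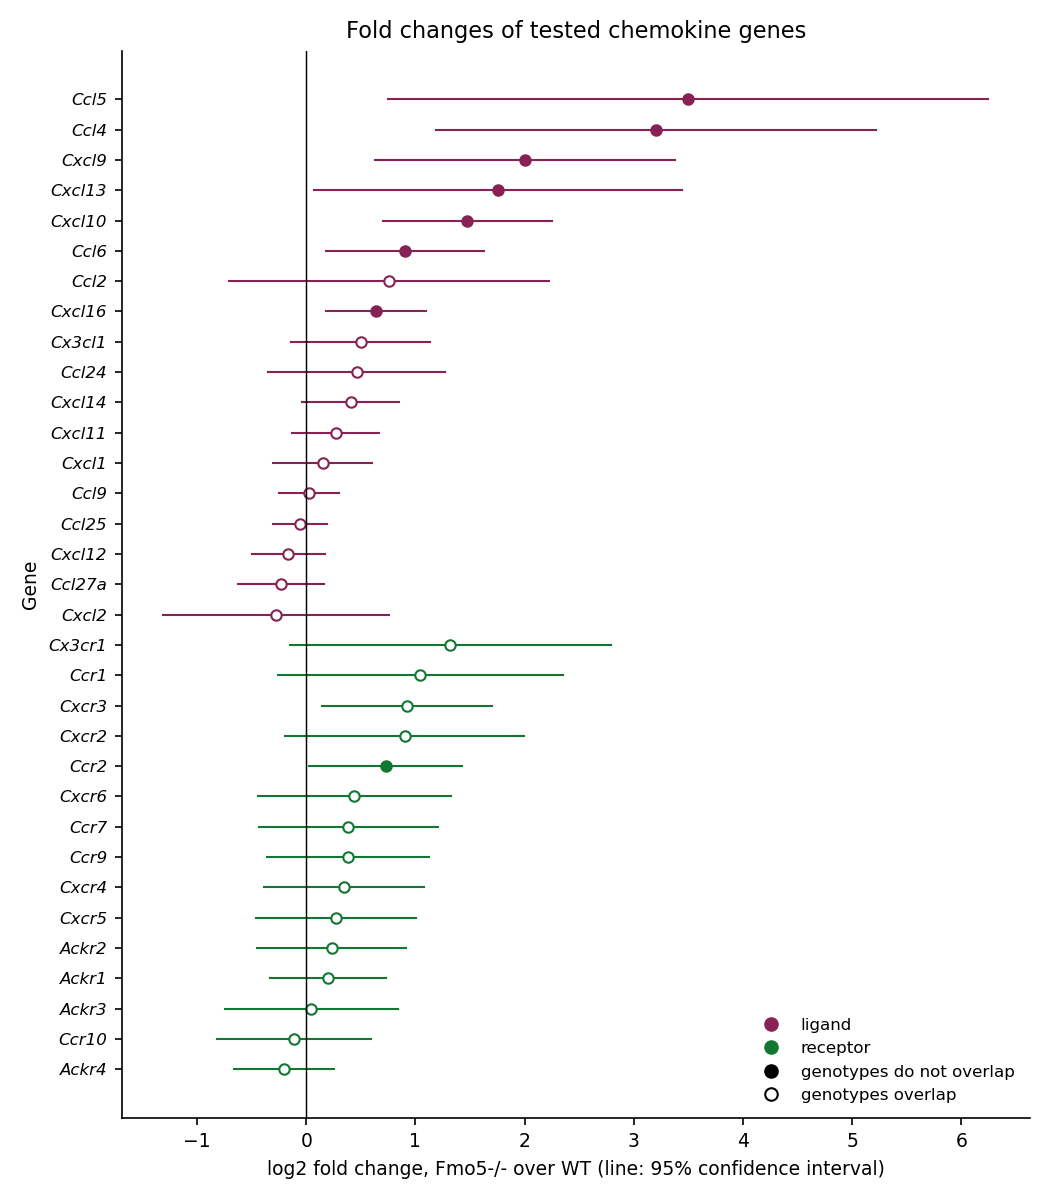
Log2 fold change, *Fmo5*-/- over WT, of 33 of the 34 tested chemokine and receptor genes with its 95% confidence interval from edgeR (n = 3 per genotype). Ligands are above and receptors below, filled points mark genes whose counts do not overlap between genotypes, and the filled points all lie to the right of 0, from 0.64 for *Cxcl16* to 3.50 for *Ccl5*.

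*Cxcl12* stood far above all other members in level. It encodes the ligand of CXCR4 and ACKR3, which retains leukocytes and progenitor cells in tissues. Per kb of exon, its transcript was at 46.0 ± 5.05 CPM (SD, n = 3) in WT and 41.1 ± 8.17 CPM in *Fmo5*-/- mice. Its normalized counts were 20336, 16313 and 18483 in WT and 20120, 14007 and 15096 in *Fmo5*-/- mice, and the genotypes overlapped (log2 fold change -0.16 ± 0.15 (SE), edgeR adjusted p = 0.561). *Cxcl12* supplied 53.3% to 56.1% of the summed level of all ligands per kb of exon in WT mice. In *Fmo5*-/- mice that share was 43.9%, 28.0% and 44.1%, lower in each mouse. The other ligands together came to 39.9, 35.9 and 39.3 CPM per kb in WT mice and to 64.3, 90.1 and 47.9 CPM per kb in *Fmo5*-/- mice. Each of the latter mice was thus above the WT range. The smaller share of *Cxcl12* came with more of the other ligands in each mouse. In mice 2 and 3 it also came with less *Cxcl12* (35.1 and 37.8 CPM per kb, against 40.9 to 50.9 in WT mice). In mouse 1 *Cxcl12* was at 50.4 CPM per kb, within the WT range. The receptors together were far lower, at 5.19, 4.38 and 4.81 CPM per kb in WT and at 6.39, 8.47 and 4.94 CPM per kb in *Fmo5*-/- mice, and there the genotypes overlapped.

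*Ccl9*, a macrophage chemokine that acts on CCR1, was next in level, at 15.4 ± 2.32 CPM per kb of exon in WT and 15.7 ± 1.76 in *Fmo5*-/- mice (SD, n = 3). Its normalized counts of 2105, 2089 and 2695 in WT and 2155, 2222 and 2638 in *Fmo5*-/- mice overlapped, with a log2 fold change of 0.03 and a 95% confidence interval of -0.25 to 0.30. In WT mice *Cxcl1* (3.79 ± 0.94 CPM per kb), *Cxcl9* (2.49 ± 0.983), *Ccl6* (2.25 ± 0.632) and *Cxcl16* (2.11 ± 0.159) followed, and neighbours in this order overlapped in their ranges over the 3 mice. In *Fmo5*-/- mice the order after *Ccl9* was *Cxcl9* (10.01 ± 5.30 CPM per kb), *Ccl5* (7.96 ± 9.13) and *Cxcl13* (6.15 ± 5.29), again with overlapping ranges, which were wide. In WT mice *Ccl5* was at 0.703 ± 0.155 CPM per kb, among *Ccl2* (0.784 ± 0.66) and *Ccl24* (0.702 ± 0.199), and all 3 overlapped.

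**Figure D2:**
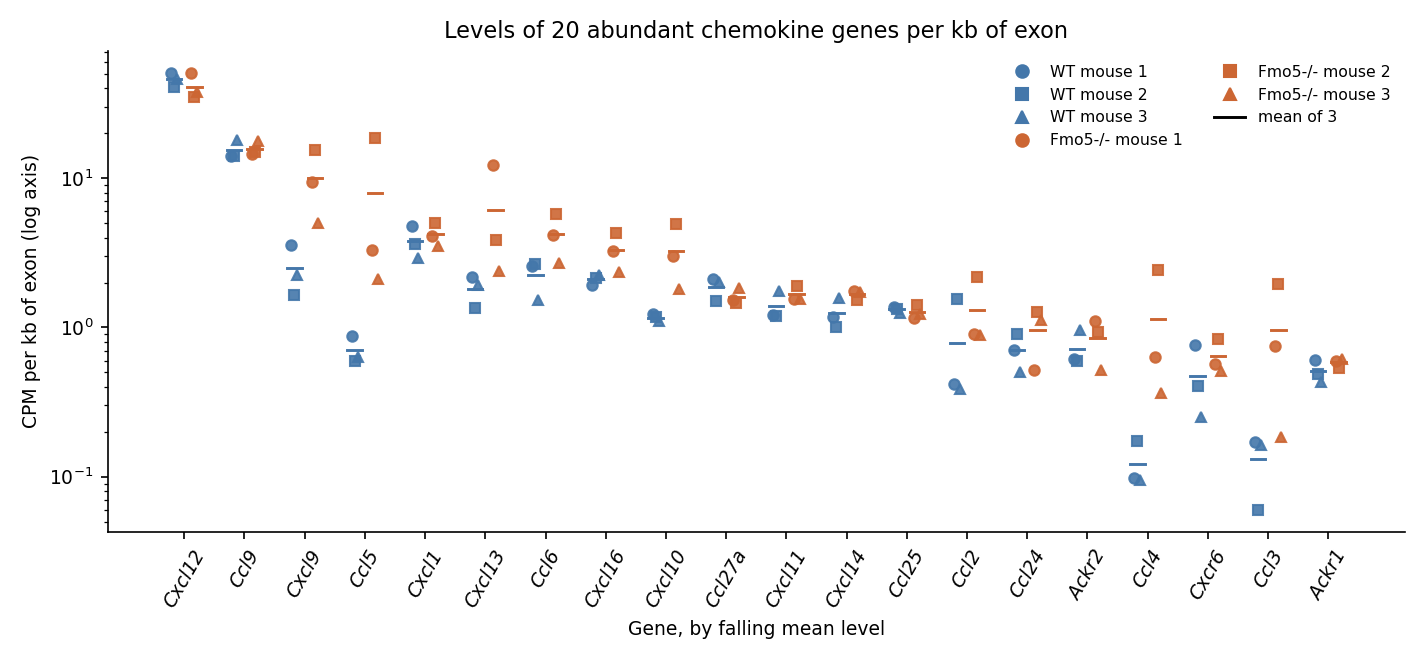
Level of 20 of the most abundant chemokine and receptor genes in CPM per kb of exon, on a log axis, in each of the 3 WT and 3 *Fmo5*-/- mice, with a bar at each mean. *Cxcl12* (46.0 in WT) and *Ccl9* (15.4 in WT) lead and overlap between genotypes, whereas *Cxcl9*, *Ccl5*, *Cxcl13* and *Cxcl10* are higher in the 3 *Fmo5*-/- mice.

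Among the ligands of CXCR3, the receptor that brings activated T cells and NK cells into inflamed tissue, *Cxcl9* and *Cxcl10* were higher in each *Fmo5*-/- mouse than in any WT mouse. *Cxcl9* (ENSMUSG00000029417.9, chromosome 5, 92321347 to 92328079, minus strand, mm10) is induced by interferon gamma. It had normalized counts of 526, 243 and 332 in WT and of 1396, 2292 and 735 in *Fmo5*-/- mice, a log2 fold change of 2.004 ± 0.53 (SE, 95% confidence interval 0.63 to 3.38). The difference did not pass the threshold with edgeR (adjusted p = 0.128, and 0.241 with no filter) and passed it with DESeq2 (adjusted p = 0.00711). *Cxcl10* (ENSMUSG00000034855.13, chromosome 5, 92346638 to 92348889, minus strand), induced by interferons and by NF-kB, had 134, 128 and 122 normalized counts in WT and 331, 540 and 199 in *Fmo5*-/- mice. The WT mice were close together and mouse 2 of the *Fmo5*-/- group was highest. Its log2 fold change of 1.48 ± 0.33 (0.70 to 2.25) had the smallest p of all tested members (edgeR adjusted p = 0.0710, DESeq2 adjusted p = 4.93e-05). Of the exon bases of *Cxcl10*, 5.91% are shared with the neighbouring gene *Art3*. The remaining ligand, *Cxcl11*, had 225, 221 and 324 normalized counts in WT and 288, 352 and 289 in *Fmo5*-/- mice, and its genotypes overlapped (log2 fold change 0.27 ± 0.18, edgeR adjusted p = 0.413). The annotation lists *Cxcl11* as a polymorphic pseudogene, and 41.7% of its exon bases overlap *Gm2673* on the opposite strand, where an unstranded read cannot be given to a single gene. Without *Fmo5*-/- mouse 2, the log2 fold change was 1.54 for *Cxcl9* (edgeR adjusted p = 0.257) and 1.05 for *Cxcl10* (edgeR adjusted p = 0.0960), and without *Fmo5*-/- mouse 3, *Cxcl10* was called by edgeR.

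CXCR3 and CXCR2 ligands lie in neighbouring parts of chromosome 5, and both groups are known targets of inflammatory transcription factors, so the 250 bases before the RefSeq start (GRCm38.p6, the build of mm10) are shown for *Cxcl9* and *Cxcl10*, whose counts separated the genotypes, and for *Cxcl1* and *Cxcl2*, whose counts did not. The genes and motifs were chosen after the values had been seen, and the letters of the motifs were shortened after longer forms of them had been searched. Each sequence is written 5′ to 3′ on the strand of the gene. Capitals mark matches, on either strand, to an interferon response element (GAAANNGAA), an interferon gamma-activated site (TTCNNNGAA) or a kB site (GGGNNNTTC).
*Cxcl9*, chr5:92328080-92328329, minus strand: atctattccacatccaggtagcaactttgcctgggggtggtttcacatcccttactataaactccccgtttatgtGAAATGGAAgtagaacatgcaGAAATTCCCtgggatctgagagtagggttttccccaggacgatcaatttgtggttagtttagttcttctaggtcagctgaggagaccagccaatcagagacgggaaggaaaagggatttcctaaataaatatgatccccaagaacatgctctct
*Cxcl10*, chr5:92348890-92349139, minus strand: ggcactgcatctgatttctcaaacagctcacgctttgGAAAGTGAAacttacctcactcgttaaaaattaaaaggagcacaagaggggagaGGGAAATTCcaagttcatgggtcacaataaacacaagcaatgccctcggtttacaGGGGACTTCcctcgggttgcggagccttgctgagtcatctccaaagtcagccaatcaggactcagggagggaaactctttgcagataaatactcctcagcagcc
*Cxcl1*, chr5:90890995-90891244, plus strand: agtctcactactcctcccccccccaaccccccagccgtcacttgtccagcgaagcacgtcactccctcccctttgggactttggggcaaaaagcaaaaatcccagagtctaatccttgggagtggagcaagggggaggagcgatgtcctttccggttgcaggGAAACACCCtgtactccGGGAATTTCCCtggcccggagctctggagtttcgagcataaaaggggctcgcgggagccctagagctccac
*Cxcl2*, chr5:90903649-90903898, plus strand: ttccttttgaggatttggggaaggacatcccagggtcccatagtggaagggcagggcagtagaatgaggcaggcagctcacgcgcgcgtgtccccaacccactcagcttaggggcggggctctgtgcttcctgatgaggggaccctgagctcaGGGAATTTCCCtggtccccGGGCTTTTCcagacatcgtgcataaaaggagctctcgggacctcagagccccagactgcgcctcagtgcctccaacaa
The window of *Cxcl9* held 1 match to the interferon response element and 1 to the kB site, and that of *Cxcl10* held 1 and 2. *Cxcl1* and *Cxcl2* held 3 kB matches each, of which 2 overlap each other on opposite strands. No window of these 4 genes held the interferon gamma-activated site. Of 32851 such windows in the RefSeq table, 7.13% held the interferon response element, 7.02% the interferon gamma-activated site and 11.8% the kB site, and of the 45 members with a window in that table, 8, 4 and 15 did. Of the 24 tested members with a window, 4, 1 and 8 did. Here and below, the shares are of windows, whereas a member counts if any of its windows holds a match. The shares and the member counts are thus not directly comparable. The result depends on the letters. With 1 more base required at the 3′ end, an A for the interferon response element and a C for the kB site, the shares of windows were 2.98% and 4.65%, 3 and 9 members held them, and *Cxcl9* held neither, while *Cxcl10*, *Cxcl1* and *Cxcl2* kept the counts given above. A match is a run of letters and does not show that a factor binds there.

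*Cxcl1*, which attracts neutrophils through CXCR2, had 438, 334 and 268 normalized counts in WT and 374, 459 and 320 in *Fmo5*-/- mice, with a log2 fold change of 0.15 ± 0.20 (SE, -0.30 to 0.60, edgeR adjusted p = 0.711). *Cxcl2*, of the same function, was at 7.41 to 21.5 normalized counts in WT and 9.32 to 19.3 in *Fmo5*-/- mice (log2 fold change -0.28 ± 0.46, edgeR adjusted p = 0.776). The genotypes overlapped in both. *Cxcl5*, another ligand of CXCR2, fell below the filter but had 1.06, 2.23 and 0 normalized counts in WT and 10.2, 14.7 and 5.89 in *Fmo5*-/- mice. It was called higher by edgeR with no filter (adjusted p = 0.00115) and DESeq2 gave it no adjusted p.

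Of the CC chemokines that draw macrophages, T cells and granulocytes through CCR1, CCR3 and related receptors, 5 of 9 passed the filter, and 3 of these, *Ccl4*, *Ccl5* and *Ccl6*, were higher without overlap, beside 13.9% of all tested genes. *Ccl4* passed only through *Fmo5*-/- libraries. *Ccl5* (ENSMUSG00000035042.2, chromosome 11, 83525778 to 83530518, minus strand), made mainly by T cells, NK cells and macrophages, had 41.3, 27.9 and 29.7 normalized counts in WT and 154, 866 and 99.2 in *Fmo5*-/- mice. All 3 of the latter were higher, but mouse 2 exceeded the other 2 by a wide margin. The log2 fold change was 3.50 ± 1.06 (SE, 0.75 to 6.25), the largest among tested members. The edgeR adjusted p was 0.158, or 0.315 with no filter, and the DESeq2 adjusted p was 0.00576. Without *Fmo5*-/- mouse 2 the log2 fold change was 1.94 and *Ccl5* was called by edgeR (adjusted p = 0.0247).

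*Ccl4* (ENSMUSG00000018930.3, chromosome 11, 83662584 to 83664683, plus strand), a chemokine of activated macrophages and lymphocytes, had 3.18, 5.58 and 3.07 normalized counts in WT and 20.5, 78.0 and 11.8 in *Fmo5*-/- mice. Its log2 fold change was 3.20 ± 0.86 (SE, 1.18 to 5.22, edgeR adjusted p = 0.0956, DESeq2 adjusted p = 0.00138), and 2.02 without *Fmo5*-/- mouse 2 (edgeR adjusted p = 0.130). The WT values rest on a few reads each. Its neighbour *Ccl3*, which shares receptors with it, had 6.35, 2.23 and 6.13 normalized counts in WT and 27.9, 73.4 and 6.87 in *Fmo5*-/- mice. *Ccl3* failed the filter, and it was called by DESeq2 (adjusted p = 0.00651) and by edgeR with no filter (adjusted p = 1.95e-05).

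*Ccl6* (ENSMUSG00000018927.3, chromosome 11, 83587882 to 83593087, minus strand), a chemokine of macrophages, had 225, 234 and 134 normalized counts in WT and 367, 506 and 236 in *Fmo5*-/- mice. The groups touched closely, with the lowest *Fmo5*-/- mouse, mouse 3, just above the highest WT mouse. The log2 fold change was 0.91 ± 0.31 (SE, edgeR adjusted p = 0.153, DESeq2 adjusted p = 0.0217), and 0.61 without *Fmo5*-/- mouse 2. *Ccl24*, an eosinophil attractant through CCR3, had 31.7 to 56.9 normalized counts in WT and 32.6 to 79.9 in *Fmo5*-/- mice, with overlap (log2 fold change 0.46 ± 0.36, edgeR adjusted p = 0.499). The genes of *Ccl3*, *Ccl4*, *Ccl5*, *Ccl6* and *Ccl9* form a cluster on chromosome 11, with *Ccl9* lying between *Ccl5* and *Ccl6*.

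*Ccl2* encodes the main ligand of CCR2, which draws monocytes out of the blood. Its normalized counts were 23.3, 85.9 and 21.5 in WT and 50.3, 120 and 49.1 in *Fmo5*-/- mice, and the high WT mouse 2 made the groups overlap (log2 fold change 0.76 ± 0.62 (SE), edgeR adjusted p = 0.531). Without WT mouse 2 the log2 fold change was 1.71 (edgeR adjusted p = 0.1502), and without *Fmo5*-/- mouse 2 it was 0.20 (edgeR adjusted p = 0.910). The receptor *Ccr2* itself, the marker of inflammatory monocytes, had 79.4, 61.4 and 56.2 in WT and 81.0, 164 and 80.5 in *Fmo5*-/- mice. Only mouse 2 stood clearly apart, while mice 1 and 3 were just above the highest WT mouse. The log2 fold change of *Ccr2* was 0.73 ± 0.31 (0.02 to 1.43, edgeR adjusted p = 0.215) and 0.30 without *Fmo5*-/- mouse 2 (edgeR adjusted p = 0.588), and it was called by edgeR with no filter (adjusted p = 0.0463).

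*Cxcl16* (ENSMUSG00000018920.11, chromosome 11, 70453983 to 70459984, minus strand) encodes a chemokine that is anchored in the membrane and guides CXCR6-bearing T and NKT cells along liver sinusoids. It had 286, 315 and 332 normalized counts in WT and 476, 632 and 346 in *Fmo5*-/- mice, a log2 fold change of 0.64 ± 0.20 (SE, 0.18 to 1.10, edgeR adjusted p = 0.119, DESeq2 adjusted p = 0.0325). Mouse 3 lay close to the WT mice, and without *Fmo5*-/- mouse 2 the log2 fold change was 0.40 (edgeR adjusted p = 0.298). Of its exon bases, 18.3% are shared with *Zmynd15*. Its receptor *Cxcr6* had 72.0, 37.9 and 23.5 in WT and 54.0, 78.9 and 48.1 in *Fmo5*-/- mice, with overlap (log2 fold change 0.44 ± 0.39, edgeR adjusted p = 0.556). The log2 fold change of *Cxcr6* ran from 0.14 to 0.98 when each library was left out in turn. The other transmembrane chemokine, *Cx3cl1*, had 25.7 to 31.8 in WT and 31.7 to 54.2 in *Fmo5*-/- mice (log2 fold change 0.50 ± 0.28, edgeR adjusted p = 0.346), and the lowest *Fmo5*-/- mouse was just under the highest WT mouse. Without *Fmo5*-/- mouse 2 the log2 fold change of *Cx3cl1* was 0.22 (edgeR adjusted p = 0.751).

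*Cxcl13*, which guides B cells into follicles through CXCR5, differed from the others in the order of the mice. It had 123, 75.9 and 107 normalized counts in WT and 685, 218 and 134 in *Fmo5*-/- mice, highest in mouse 1. The log2 fold change was 1.76 ± 0.67 (SE, 0.07 to 3.44, edgeR adjusted p = 0.214, DESeq2 adjusted p = 0.110), 2.003 without mouse 2 and 0.78 without mouse 1 of that group. Its receptor *Cxcr5* overlapped between genotypes (log2 fold change 0.27 ± 0.32, edgeR adjusted p = 0.672). The tested ligands *Ccl25*, *Ccl27a* and *Cxcl14* overlapped between the genotypes. *Ccl25*, the CCR9 ligand, had 497, 487 and 457 in WT and 422, 517 and 448 in *Fmo5*-/- mice (log2 fold change -0.05 ± 0.11, -0.30 to 0.19), and *Ccl27a*, a CCR10 ligand, had 175 to 245 and 168 to 213 (log2 fold change -0.23 ± 0.17, edgeR adjusted p = 0.485). *Cxcl14* had 105, 90.4 and 141 in WT and 156, 137 and 155 in *Fmo5*-/- mice and overlapped in 1 mouse of each genotype (log2 fold change 0.41 ± 0.20, edgeR adjusted p = 0.266).

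**Figure D3:**
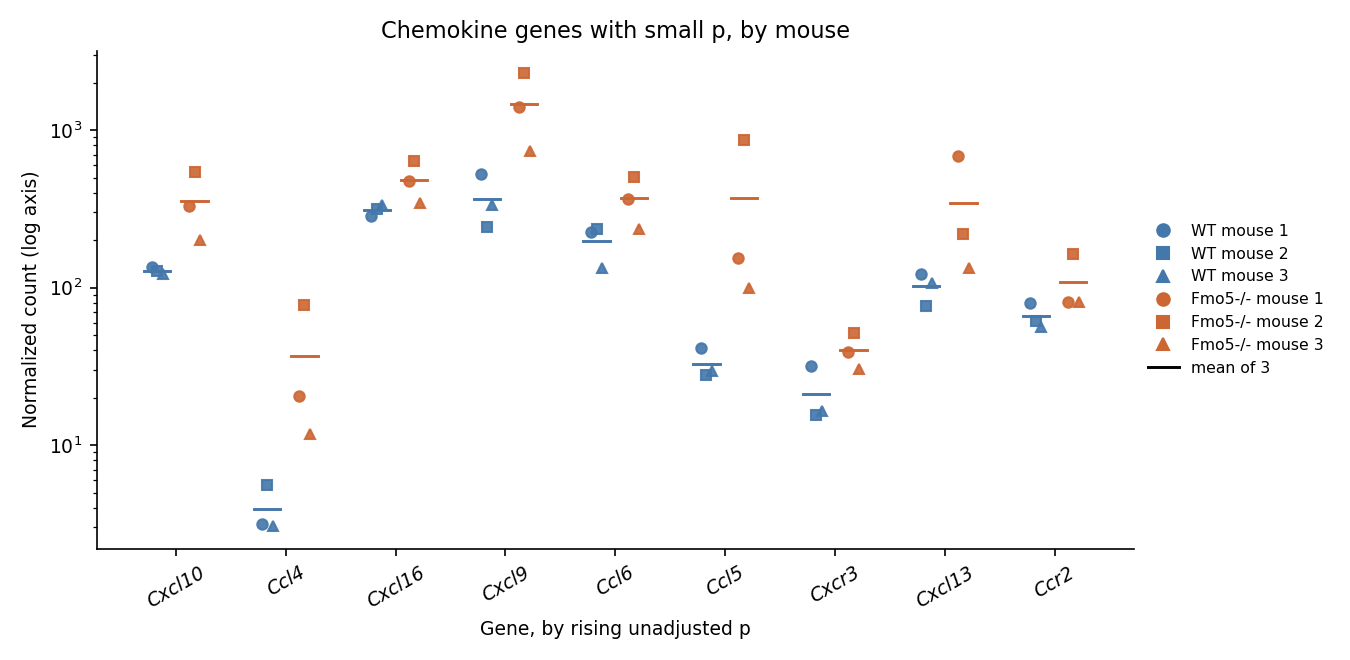
Normalized counts, on a log axis, of 9 of the 10 chemokine and receptor genes with an unadjusted p under 0.05, in each of the 3 WT and 3 *Fmo5*-/- mice, with a bar at each mean. Mouse 2 is the highest *Fmo5*-/- mouse in all but *Cxcl13* and mouse 3 is the lowest in each, as for *Ccl5* (154, 866 and 99.2 in mice 1 to 3).

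Of the receptors, *Cxcr3*, the receptor of CXCL9 and CXCL10, had 31.8, 15.6 and 16.4 in WT and 39.1, 51.4 and 30.4 in *Fmo5*-/- mice, and WT mouse 1 lay above the lowest *Fmo5*-/- mouse (log2 fold change 0.92 ± 0.35, edgeR adjusted p = 0.168). With the reads of 1 strand its log2 fold change was 1.53 (edgeR adjusted p = 0.0577), and without WT mouse 1 it was 1.33. *Cx3cr1*, the fractalkine receptor of monocytes and macrophages, had 21.2, 33.5 and 47.0 in WT and 43.8, 168 and 42.2 in *Fmo5*-/- mice, so that mouse 2 alone was far from the rest (log2 fold change 1.32 ± 0.62, edgeR adjusted p = 0.277, and 0.34 without mouse 2).

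The other 8 tested signalling receptors, *Ccr1*, *Ccr7*, *Ccr9*, *Ccr10*, *Cxcr2*, *Cxcr4*, *Cxcr5* and *Cxcr6*, overlapped between genotypes, with log2 fold changes of -0.11 for *Ccr10* to 1.05 for *Ccr1*. Of the exon bases, 21.4% of *Ccr9* and 25.7% of *Ackr1* are shared with other genes. None of the 4 atypical receptors had an unadjusted p under 0.05, and their log2 fold changes were between -0.20 (*Ackr4*) and 0.23 (*Ackr2*). *Ackr2*, the scavenger of inflammatory CC chemokines and the most abundant of them by mean CPM over all libraries, had 93.2, 91.5 and 146 normalized counts in WT and 169, 141 and 79.5 in *Fmo5*-/- mice, with overlap (log2 fold change 0.23 ± 0.30 (SE), edgeR adjusted p = 0.700). In WT mice alone *Ackr4* had the higher mean normalized count (126 against 110 for *Ackr2*).

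The 28 members that did not pass the filter were *Ccl1*, *Ccl3*, *Ccl7*, *Ccl8*, *Ccl11*, *Ccl12*, *Ccl17*, *Ccl19* and its pseudogenes *Ccl19-ps1* and *Ccl19-ps3*, *Ccl20*, *Ccl21a*, *Ccl21b*, *Ccl22*, *Ccl26*, *Ccl27b*, *Ccl28*, *Cxcl3*, *Cxcl5*, *Cxcl15*, *Cxcl17*, *Xcl1*, *Ccr1l1*, *Ccr3*, *Ccr4*, *Ccr6*, *Ccr8* and *Cxcr1*. Of these, *Ccl19-ps3*, *Ccl21b* and *Ccl27b* had no count in any library, and 15 had 3 counts or fewer in every library. *Ccl21a* and *Ccl21b*, *Ccl27a* and *Ccl27b*, and *Ccl19* and its pseudogenes are near-identical copies, and reads that map to several places were not counted, so their levels are uncertain. The most counts in a library were 80, for *Ccl3* in *Fmo5*-/- mouse 2. *Ccl8*, a CCR1, CCR2 and CCR3 ligand, had 35.8 normalized counts in *Fmo5*-/- mouse 2 and at most 4.66 in the other libraries. Of the untested members with a count, 21 had a higher mean and 4 a lower mean in *Fmo5*-/- mice, and 5 (*Ccl3*, *Ccl7*, *Ccl22*, *Ccr4* and *Cxcl5*) did not overlap, all higher, beside 3.62% higher and 3.54% lower without overlap among all genes with a count that did not pass the filter.

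The spread among mice was described by the coefficient of variation. The median coefficient of variation of tested members was 23.6% in WT and 33.6% in *Fmo5*-/- mice, whereas it was 11.2% and 11.1% over all tested genes. It was larger in *Fmo5*-/- mice in 20 of the 34 members, beside 48.6% of all tested genes. *Fmo5*-/- mouse 2 had the highest value of the 6 in 22 of the 34 tested members, beside 22.5% of all tested genes. Among the 10 members with an unadjusted p under 0.05 it was highest in 9, and mouse 3 was the lowest *Fmo5*-/- mouse in all 10. Without mouse 2 the median log2 fold change of the tested members was 0.21, and edgeR called 1 member, *Ccl5*, beside 0.337% of all genes tested. Without mouse 3, edgeR called 7 of 36 higher, among them *Ccl3*, *Ccl4*, *Ccl6*, *Cxcl5*, *Cxcl10* and *Cxcl16*, beside 3.54% of all genes tested. Of these, *Ccl3*, *Ccl4* and *Cxcl5* had fewer than 10 counts in every WT library and passed the filter only through *Fmo5*-/- libraries, which favours a call in that direction. Without each of the other 4 libraries it called 0 members, beside 0.0939% to 0.304% of all genes tested higher.

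The summed markers of Kupffer cells, T cells, NK cells and neutrophils were higher in each *Fmo5*-/- mouse than in any WT mouse, while those of monocytes, dendritic cells and B cells overlapped. Beside the counts that follow, 11.6% of all tested genes were higher at an unadjusted p under 0.05, and DESeq2 called 4.75% of all genes higher. In bulk liver, more cells of a type and more RNA per cell cannot be told apart. The 11 Kupffer cell markers summed to 275 to 325 CPM in WT and to 754, 783 and 429 CPM in *Fmo5*-/- mice, without overlap. Of the 11, *Clec4f*, the lectin of mature Kupffer cells, was called by edgeR (normalized counts of 3787, 3768 and 3140 in WT and 5907, 6327 and 5085 in *Fmo5*-/- mice, log2 fold change 0.70 ± 0.11 (SE), adjusted p = 0.0275), and DESeq2 called 10. All 11 were higher at an unadjusted p under 0.05. EdgeR called *Clec4f* without *Fmo5*-/- mouse 3 (adjusted p = 0.00845) or WT mouse 3 (adjusted p = 0.0496), and not without each of the other libraries (adjusted p from 0.05004 to 0.102). The 9 T cell markers summed to 5.38 to 6.72 CPM in WT and to 11.6, 28.1 and 8.26 CPM in *Fmo5*-/- mice, and the 7 NK cell markers to 1.03 to 2.84 CPM and to 6.07, 14.2 and 3.62 CPM. Mouse 2 was thus highest and mouse 3 lowest of the *Fmo5*-/- mice for T and NK cell markers, in the order seen for *Cxcl9*, *Cxcl10*, *Ccl4* and *Ccl5*. EdgeR called none of the T or NK cell markers, with 6 and 4 at an unadjusted p under 0.05, and DESeq2 called 5 and 3, all higher.

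The 8 neutrophil markers summed to 2.97 to 5.16 CPM in WT and to 8.76, 12.5 and 6.21 CPM in *Fmo5*-/- mice, again without overlap. Only 3 of them were tested, of which *Csf3r*, the G-CSF receptor, was called by edgeR (132, 104 and 103 normalized counts in WT and 289, 340 and 179 in *Fmo5*-/- mice, log2 fold change 1.25 ± 0.24 (SE), adjusted p = 0.0468, and 0.00438 without *Fmo5*-/- mouse 3 but 0.0889 to 0.134 without each of the other libraries and 0.0681 with the reads of 1 strand). *Ly6g*, which defines mouse neutrophils, was at 0 in 5 of the 6 libraries. The 8 monocyte markers (49.8 to 52.8 CPM in WT, and 109.7, 101 and 51.6 CPM in *Fmo5*-/- mice 1 to 3, with 2 of the 5 tested called higher by DESeq2), the 7 dendritic cell markers (10.8 to 13.7 and 13.3 to 21.7 CPM) and the 6 B cell markers (16.7 to 48.4 and 26.7 to 36.8 CPM) overlapped. So did the markers of hepatocytes (110066 to 141862 and 110703 to 137864 CPM), sinusoidal endothelial cells (234 to 268 and 243 to 254 CPM), stellate cells (314 to 362 and 323 to 425 CPM), cholangiocytes (36.3 to 67.6 and 44.98 to 53.6 CPM) and red cells and platelets (207 to 307 and 209 to 438 CPM). No other marker on these lists was called by edgeR, and every marker found had a count in at least 1 library. DESeq2 called 2 neutrophil markers and 1 dendritic cell marker higher. It called 1 sinusoidal endothelial marker lower, beside 4.21% of all genes, and none of the B cell, hepatocyte, stellate cell, cholangiocyte or red cell and platelet markers. The part that cell numbers play in the chemokine values was not tested.

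**Figure D4:**
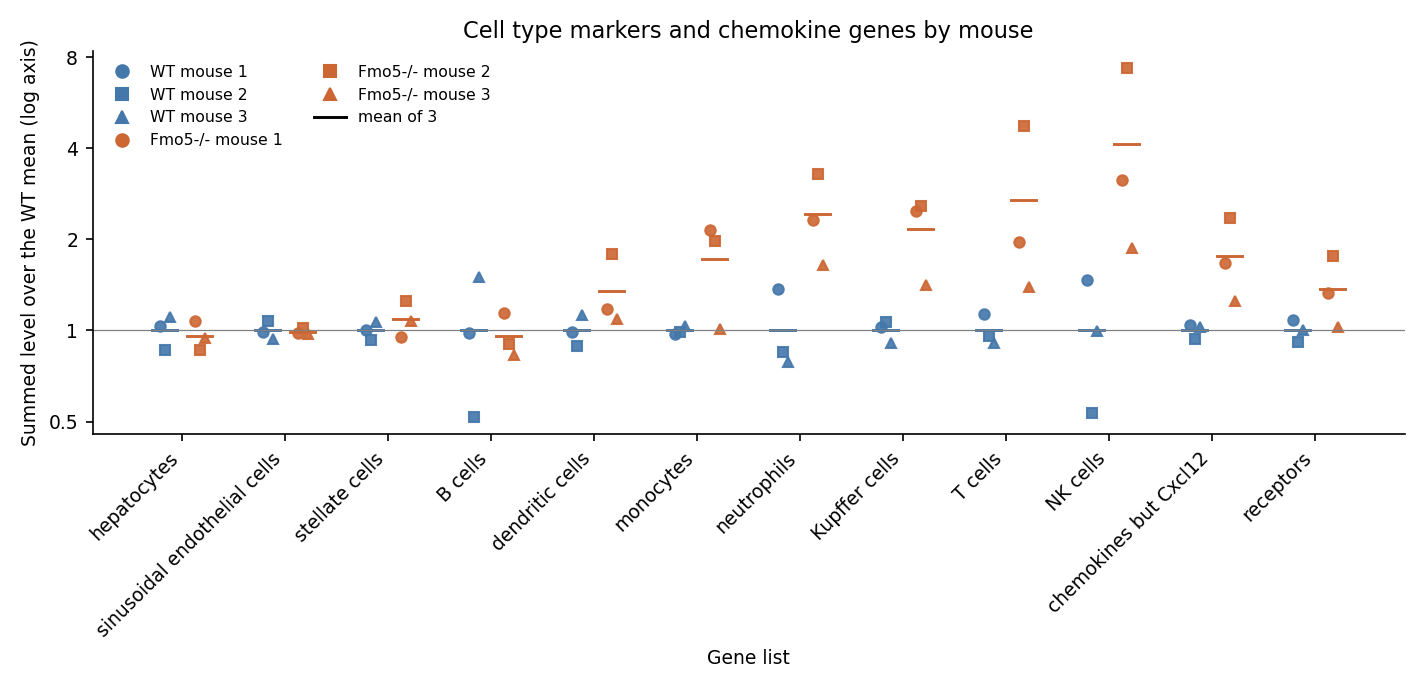
Summed CPM of marker lists, and summed CPM per kb of exon of the chemokine ligands without *Cxcl12* and of the receptors, each divided by its mean over the 3 WT mice, on a log axis, for each mouse with a bar at each mean. Hepatocyte and sinusoidal endothelial markers lie near 1 in every mouse, whereas Kupffer, T and NK cell markers are above the WT range in each *Fmo5*-/- mouse and highest in mouse 2 (783 CPM for Kupffer cells, 28.1 CPM for T cells).

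Genes around the chemokine system were followed in 5 lists. Their counts stand beside 11.6% of all tested genes higher and 10.2% lower at an unadjusted p under 0.05, and 4.75% called higher and 4.21% called lower by DESeq2. Of 39 tested genes of chemokine receptor signalling, which comprise G proteins, PI3K, Rac and their regulators, edgeR called 0 in either direction, with 18 higher and 4 lower at an unadjusted p under 0.05 and a median log2 fold change of 0.44, and DESeq2 called 15 higher and 1 lower. *Rac2*, the Rac GTPase of blood cells, had 215, 215 and 231 normalized counts in WT and 635, 621 and 319 in *Fmo5*-/- mice (log2 fold change 1.25 ± 0.25 (SE), edgeR adjusted p = 0.0554). *Rgs14*, which limits G protein signals, had 20.1, 22.3 and 15.3 in WT and 43.8, 57.8 and 40.3 in *Fmo5*-/- mice (log2 fold change 1.30 ± 0.27, edgeR adjusted p = 0.0554). Both were higher in each *Fmo5*-/- mouse.

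Of 17 tested genes of the interferon gamma pathway, which induces *Cxcl9* and *Cxcl10*, edgeR called 1 higher and 0 lower, with 8 higher and 0 lower at an unadjusted p under 0.05 (median log2 fold change 0.21), and DESeq2 called 4 higher and 0 lower. The called gene was *Irf7*, an interferon-induced transcription factor. It had 1216, 1227 and 1442 normalized counts in WT and 2213, 2280 and 2078 in *Fmo5*-/- mice, a log2 fold change of 0.76 ± 0.09 (SE, edgeR adjusted p = 0.00871). Its level was similar in the 3 *Fmo5*-/- mice, and edgeR called it without any 1 of the 6 libraries (adjusted p from 0.00609 to 0.0499). *Irf8*, a transcription factor of macrophages and dendritic cells, had 357, 374 and 365 in WT and 777, 1055 and 490 in *Fmo5*-/- mice (log2 fold change 1.08 ± 0.25, edgeR adjusted p = 0.0763).

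Of 21 tested genes of NF-kB and its upstream cytokines, edgeR called 1 higher and 0 lower, with 10 higher and 2 lower at an unadjusted p under 0.05 (median log2 fold change 0.23), and DESeq2 called 6 higher and 1 lower. *Relb*, the NF-kB subunit of the non-canonical pathway, was the called gene, with 110, 144 and 117 normalized counts in WT and 296, 330 and 197 in *Fmo5*-/- mice (log2 fold change 1.15 ± 0.21 (SE), edgeR adjusted p = 0.0447). EdgeR called *Relb* without *Fmo5*-/- mouse 3 (adjusted p = 0.00560) and not without any other library (adjusted p from 0.0648 to 0.131). Its partner *Nfkb2* had 438, 476 and 469 in WT and 755, 793 and 575 in *Fmo5*-/- mice (log2 fold change 0.62 ± 0.13, edgeR adjusted p = 0.0552), higher in each *Fmo5*-/- mouse.

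The 14 tested genes of chemokine binding and cleavage, which make heparan sulphate or trim chemokines, had a median log2 fold change of 0.03, and edgeR and DESeq2 called 0 of them, with 1 higher and 0 lower at an unadjusted p under 0.05. That gene was *Mmp9*, a gelatinase of leukocytes, with 45.5, 27.9 and 11.2 normalized counts in WT and 66.1, 49.6 and 47.1 in *Fmo5*-/- mice (edgeR adjusted p = 0.229), and *Ndst2*, a heparan sulphate sulphotransferase, had the next smallest p (log2 fold change 0.16 ± 0.09 (SE), edgeR adjusted p = 0.316). Of 8 tested chemokine-related genes whose symbols do not follow the family names, edgeR called 0, with 2 higher and 0 lower at an unadjusted p under 0.05, and DESeq2 called 1. *Cmklr1*, the chemerin receptor of macrophages, had 71.0, 97.1 and 54.2 in WT and 174, 179 and 106 in *Fmo5*-/- mice (log2 fold change 1.05 ± 0.28, edgeR adjusted p = 0.0807), and *Gpr35*, a receptor reported to bind CXCL17, had 23.3, 22.3 and 20.4 in WT and 26.1, 77.1 and 33.4 in *Fmo5*-/- mice (log2 fold change 1.05 ± 0.42, edgeR adjusted p = 0.187). Without *Fmo5*-/- mouse 2 the log2 fold change of *Gpr35* was 0.43 (edgeR adjusted p = 0.530), and with the reads of 1 strand it was 0.52.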

How the data were processed

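RNA-seq was performed on liver from 3 WT and 3 *Fmo5*-/- mice, 1 library per mouse. The authors clipped adapters, mapped the single reads to mm10 with STAR, counted reads per gene, and deposited raw counts for both strands and for each strand. The labels' processing notes also name bcl2fastq and FastQC, and the annotation release is not given in the sources used here. The deposited comparison table of the authors holds normalized values (a signal, the raw count divided by a size factor per library), log2 fold changes with standard errors, a Wald score, and p-values with their adjustment. From this table only the gene symbols and identifiers were used, and the signal was checked to be the unstranded count divided by 1 factor per library. The kit does not mark strand (49.9% to 50.1% of counts lay on the sense strand), so counts were taken over both strands, genes that overlap on opposite strands cannot be told apart, and the deposited counts of 1 strand served as an alternative. Unmapped, multimapping, ambiguous and featureless reads (30.8% to 33.8%) entered no library size.

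Genes were filtered with filterByExpr (minimum count 10), scaled by TMM and tested with the robust quasi-likelihood test of edgeR 4.0.16 in R 4.3.3, genotype being the sole factor, two-sided, with Benjamini-Hochberg adjustment over 16734 genes. A call is an adjusted p under 0.05. Standard errors are the log2 fold change divided by the root of the F statistic. Alternatives were the DESeq2 1.42.0 Wald test, RLE factors, TMM without the 20 most abundant genes, no filter except 1 count, a mean normalized count of 500 or more, reads of 1 strand, and leaving out each library. The steps were tested on simulated data. Positions and exon lengths are from GENCODE vM21, in which all 62 identifiers were found, and promoter sequences from RefSeq (GRCm38.p6), in which 45 were found.

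Named with values are *Fmo5*, members with a p under 0.05, the most abundant tested member of each role group, and in each pathway list the called genes and the 2 with the smallest p. Other tested members are described more briefly, and those given with values beyond this rule were chosen after their values were seen. 1 tested member is counted but is not reported here. The members and all lists were chosen with earlier results of these data known. Libraries were taken as separate mice, since the labels give each its own sample number. The lists of hepatocyte, signalling and other genes held some symbols that matched no gene, which were left out.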

Additional observations from a re-analysis of the deposited data

How the results depend on the processing

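With edgeR, 0 members were called higher. That count was 8 with DESeq2, 8 with no filter on low counts, 1 with the reads of 1 strand, 0 to 7 when each library was left out in turn, and 0 with RLE factors, with TMM without the 20 most abundant genes or at a mean of 500 or more. The 9 members higher without overlap (13.9% of all tested genes) were 13 with DESeq2 (8.14% of all genes), 13 with no filter (8.28%), 1 at a mean of 500 or more (9.39%) and 10 to 17 without single libraries (17.5% to 22.3%). The 0 members lower without overlap (13.5% of all tested genes) became 0 to 1 without single libraries (16.1% to 19.9%). They were 0 with DESeq2 (8.99%), with no filter (8.85%) and at a mean of 500 or more (21.9%). The counts with DESeq2 and with no filter cover all 59 members with a count. The median log2 fold change of 0.43 was 0.69 with DESeq2, 0.64 with no filter, 0.026 over the 3 members with a mean of 500 or more, and 0.21 to 0.59 without single libraries. The 2 pathway genes called higher (0.675% of all tested genes) were 26 with DESeq2 (4.75% of all genes), 32 with no filter (3.2%), 7 with the reads of 1 strand (1.16%), 3 with TMM without the 20 most abundant genes, 1 at a mean of 500 or more and 1 to 20 without single libraries (0.0939% to 3.54%). The 0 called lower were 2 with DESeq2 and 4 with no filter. In 502 comparisons of single genes, which cover the tested members and some genes of the pathway and marker lists, 42 gained a call, 15 lost one and 11 changed sign. The lost calls were all of *Clec4f*, *Csf3r* and *Relb*, which are not members. The gained calls were of members and of listed genes such as *Rac2* and *Nfkb2*, and the changes of sign were all of members. *Ccr10* changed sign with the reads of 1 strand (0.19), and without single libraries the log2 fold change ran from -0.26 to 0.46 for *Ackr3*, -0.14 to 0.0055 for *Ccl25*, -0.072 to 0.16 for *Ccl9*, -0.27 to 0.089 for *Ccr10*, -0.0038 to 0.36 for *Cxcl1* and -0.70 to 0.038 for *Cxcl2*. The causes were not tested. No scaling moved the median of all genes by more than 0.1 on the log2 scale.

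No paired analysis was possible because the labels give the mice no shared replicate numbers. Each genotype has 3 mice, which limits the precision: the median standard error of the log2 fold change was 0.33 for tested members and 0.15 for all tested genes. The comparison of members with few reads depends on the filter, and the fold of *Ccl4* rests on 3 to 5 reads per WT library. Litter and cage are not given per mouse, and their part was not tested. The authors state that the mice were kept in adjacent cages, so cage may not be separable from genotype here.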
